A study of Mus musculus with 5 samples.

Results

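Triglyceride, very-long-chain fatty acid and ceramide synthesis were followed through 4 genes, Dgat2, Tecr, Degs1 and Sptssa, in anti-ACAA2 chromatin immunoprecipitation and sequencing (ChIP-seq) of mouse hearts. The members were all merged regions of the deposited table whose gene list names one of these genes, which gave 4 regions, 1 per gene, of 3885 in all. Dgat2 came to attention through its mean signal, Tecr through its TAC-over-sham ratio on 10% fat diet, and Degs1 and Sptssa through that ratio on 60% fat diet. The average signals of the 4 libraries are therefore given as a description of these regions.

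The animals were male C57Bl/6J mice, 12 weeks old. The groups were TAC on 60% fat diet, sham on 60% fat diet, TAC on 10% fat diet and sham on 10% fat diet, with fat given as a percentage of kilocalories. TAC is transverse aortic constriction, which narrows the aorta so that the left ventricle pumps against a higher pressure, and sham mice had surgery without it. All mice ate their diet for 4 days before surgery and for another week after it. Each group has 1 library, and the extraction protocol speaks of pools of 3. That protocol names antibodies against butyrylated or acetylated lysine 9 of histone H3, whereas the title, the antibody label and the column names give ACAA2, and the values are read here as anti-ACAA2. With 1 library per group there was no replicate spread, no test and no p-value, and the intervals given describe counting error only. Reads lacking molecular identifiers need not come from separate molecules, so the counting error itself may be larger than these intervals.

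ACAA2 is a mitochondrial 3-ketoacyl-CoA thiolase, an enzyme that releases acetyl-CoA at the end of a round of fatty acid beta-oxidation. The 4 genes act on the other side of lipid metabolism, where fatty acyl-CoA is stored, lengthened or built into sphingolipids. DGAT2 adds the last acyl chain to diacylglycerol to make triglyceride. TECR, the trans-2-enoyl-CoA reductase, completes each elongation cycle of very-long-chain fatty acids. SPTSSA is a small subunit of serine palmitoyltransferase, the enzyme that starts sphingolipid synthesis from serine and palmitoyl-CoA, and DEGS1 desaturates dihydroceramide to ceramide. Heart muscle burns most of the fatty acid it takes up, and stored triglyceride and ceramide are known to rise in hearts overloaded with lipid.

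All 4 regions lay at a gene start, and each was annotated by the authors with 1 CpG island, 1 promoter and 1 gene. Of all regions, 29.5% (1146 regions) had this combination. In mm10, the build the authors used, the Dgat2 region was at chr7:99182722-99183076 and the Tecr region at chr8:83594754-83595040. The Degs1 region was at chr1:182282628-182282873 and the Sptssa region at chr12:54656572-54656977. The authors gave their distances to the start as 186 bp upstream for Dgat2, 406 bp upstream for Tecr, 202 bp upstream for Sptssa and 9 bp inside the gene for Degs1. The regions were 354 bp (Dgat2), 286 bp (Tecr), 245 bp (Degs1) and 405 bp (Sptssa) long, against a median of 307 bp over all regions. In the RefSeq annotation of GRCm38.p6, the same assembly as mm10, the Tecr region also lay within the long noncoding RNA gene D830024N08Rik. Its signal cannot be assigned to only 1 of these genes.

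**Figure D1:**
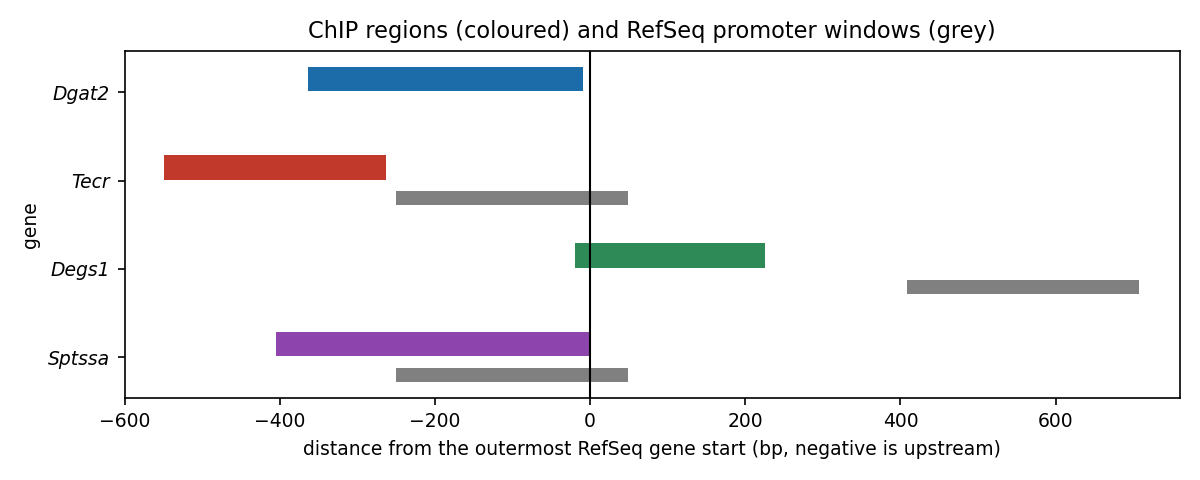
The bars show, for each gene, the ChIP region (coloured) and the RefSeq promoter window (grey, where the table lists one) by their distance in bp from the outermost RefSeq gene start. The Dgat2, Tecr and Sptssa regions lie upstream of the start and the Degs1 region spans it, and the Sptssa region is the only one that overlaps its window.

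RefSeq promoter windows, from 250 bases before to 50 after a start on GRCm38.p6, were listed for 3 of the 4 genes and are shown to let the base content of these starts be compared. No window was listed for Dgat2. Each of the 3 windows is printed on the minus strand, which is the gene's own strand. Matches to the searched motifs are in capitals on either strand. The windows are chr12:54656523-54656822 for Sptssa, chr8:83594442-83594741 for Tecr and chr1:182282146-182282445 for Degs1.
Sptssa: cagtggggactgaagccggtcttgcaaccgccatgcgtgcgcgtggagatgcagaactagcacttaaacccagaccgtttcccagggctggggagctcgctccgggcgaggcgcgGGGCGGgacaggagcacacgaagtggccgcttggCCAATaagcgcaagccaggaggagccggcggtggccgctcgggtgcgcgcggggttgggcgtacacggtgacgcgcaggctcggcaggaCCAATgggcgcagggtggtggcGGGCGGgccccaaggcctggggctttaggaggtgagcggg
Tecr: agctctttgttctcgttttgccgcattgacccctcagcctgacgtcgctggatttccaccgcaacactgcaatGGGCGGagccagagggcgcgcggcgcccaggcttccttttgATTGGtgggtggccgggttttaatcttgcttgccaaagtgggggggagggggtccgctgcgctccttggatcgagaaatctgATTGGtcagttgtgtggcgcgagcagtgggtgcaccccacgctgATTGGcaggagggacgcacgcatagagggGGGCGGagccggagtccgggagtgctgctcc
Degs1: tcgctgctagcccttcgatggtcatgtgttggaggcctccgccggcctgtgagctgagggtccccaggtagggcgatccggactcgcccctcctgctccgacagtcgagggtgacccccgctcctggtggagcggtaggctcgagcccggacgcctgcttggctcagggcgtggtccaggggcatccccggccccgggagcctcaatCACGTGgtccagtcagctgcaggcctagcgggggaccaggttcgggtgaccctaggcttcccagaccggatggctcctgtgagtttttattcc

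The Sptssa window shared 251 bases with its ChIP region, out of the 300 printed. The Tecr window ended 12 bases short of its region. The Degs1 window belongs to a start further inside the gene and lay 182 bases from the region. All 3 windows were rich in G and C, with 70% in Sptssa, 62.7% in Tecr and 67.3% in Degs1 against a median of 52.7% over 32851 windows. They held 31 (Sptssa), 22 (Tecr) and 21 (Degs1) CG dinucleotides against a median of 7. The GC box GGGCGG matched at 2 places in the Sptssa and 2 in the Tecr window, and 35.7% of all windows held it. The CCAAT box matched at 2 places in Sptssa, as CCAAT, and at 3 in Tecr, in the reverse orientation ATTGG, and 37.4% of all windows held it. The Degs1 window held neither, and it was the only one of the 3 with the E-box CACGTG, which 7.15% of all windows held. The TATA box TATAAA, the nuclear receptor element AGGTCA, the estrogen-related receptor element TCAAGGTCA, the cyclic AMP element TGACGTCA, the ETS motif TTCCGG and the NRF1 core GCATGCGC were in none of the 3. They were held by 13.6% (TATAAA), 16.3% (AGGTCA), 0.423% (TCAAGGTCA), 1.79% (TGACGTCA), 14.9% (TTCCGG) and 2.71% (GCATGCGC) of all windows. TCAAGGTCA contains AGGTCA, so these matches can overlap. A match describes the letters of a window and is not a measured binding site.

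The libraries differed in total signal, which touches every ratio below. Summed over all regions they held an estimated 62559 fragments in TAC and 49593 in sham hearts on 60% fat diet, and 68963 in TAC and 75313 in sham hearts on 10% fat diet. Intervals were called in 1396 regions in TAC and 600 in sham hearts on 60% fat diet, and in 1820 regions in TAC and 2225 in sham hearts on 10% fat diet. Of all regions, 63.8% were called in 1 library only. How libraries were scaled to each other is not stated in the sources used here. Heart tissue holds several cell types, and a different cell makeup cannot be told apart from a different signal per cell. Of the marker genes checked, 3 of 12 for cardiomyocytes had a region (Myh6, Pln, Ttn), 1 of 10 for adipocytes (Fabp4), 1 of 8 for endothelium (Kdr), 1 of 8 for macrophages (Cd68) and 0 of 8 each for fibroblasts and liver, and a region at a gene does not measure its expression.

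Dgat2 carried one of the strongest regions of the table. Its average signal is read here as the mean number of fragments piled up over the region. On 60% fat diet this signal was 22.5 in TAC and 16.8 in sham hearts. On 10% fat diet it was 13.9 in TAC and 25.8 in sham hearts. The exact Poisson intervals were 15.7 to 31.2 (TAC, 60% fat), 11 to 24.5 (sham, 60% fat), 8.71 to 21.1 (TAC, 10% fat) and 18.5 to 35.1 (sham, 10% fat). Its mean over the libraries, 19.7, ranked 2 among all regions and 1 among the regions with exactly 1 named gene. Sde2 followed closely with 19.7, and the median of all regions was 9.76. Utp3 at 16.25 was the last of the 10 single-gene regions picked in this way, with Cltc at 16.2 just outside them. Within single libraries Dgat2 ranked 3 from the top (TAC, 60% fat), 35 (sham, 60% fat), 900 (TAC, 10% fat) and 6 (sham, 10% fat). The region was called in every library but that of TAC hearts on 10% fat diet, where its signal was lowest.

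Tecr had a low mean signal, 7.40, with a rank of 3263 from the top of the 3885 regions, and was high in 1 library. The average signal was 7.11 in TAC and 5.33 in sham hearts on 60% fat diet, and 1.71 in TAC and 15.4 in sham hearts on 10% fat diet. Behind these values stood an estimated 9.08 fragments in TAC and 6.81 in sham hearts on 60% fat diet, and 2.19 in TAC and 19.7 in sham hearts on 10% fat diet. The library of sham hearts on 10% fat diet was the highest and the only one called, and that of TAC hearts on 10% fat diet was the lowest. On 10% fat diet, from which the gene was picked, the Poisson interval was 0.238 to 5.89 in TAC and 9.40 to 23.9 in sham hearts.

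Degs1 had its highest signal in TAC and its lowest in sham hearts on 60% fat diet. The average signal was 16 in TAC and 1.57 in sham hearts on 60% fat diet, and 7.86 in TAC and 7.57 in sham hearts on 10% fat diet. The estimated fragments were 17.5 in TAC and 1.72 in sham hearts on 60% fat diet, and 8.59 in TAC and 8.28 in sham hearts on 10% fat diet. The library of TAC hearts on 60% fat diet was the only one called. Both libraries on 10% fat diet lay between the other 2, and their intervals overlapped almost wholly, with 3.51 to 15.1 in TAC and 3.33 to 14.8 in sham hearts.

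Sptssa had the lowest mean signal of the 4 regions, 6.29, and 7.03% of all regions had a lower one. The average signal was 2.92 in TAC and 11.5 in sham hearts on 60% fat diet, and 5.46 in TAC and 5.23 in sham hearts on 10% fat diet. These rest on an estimated 5.28 fragments in TAC and 20.9 in sham hearts on 60% fat diet, and 9.88 in TAC and 9.46 in sham hearts on 10% fat diet. Sham hearts on 60% fat diet gave the highest signal and the only called interval. On 60% fat diet, from which the gene was picked, the Poisson interval was 0.987 to 6.67 in TAC and 7.13 to 17.7 in sham hearts.

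**Figure D2:**
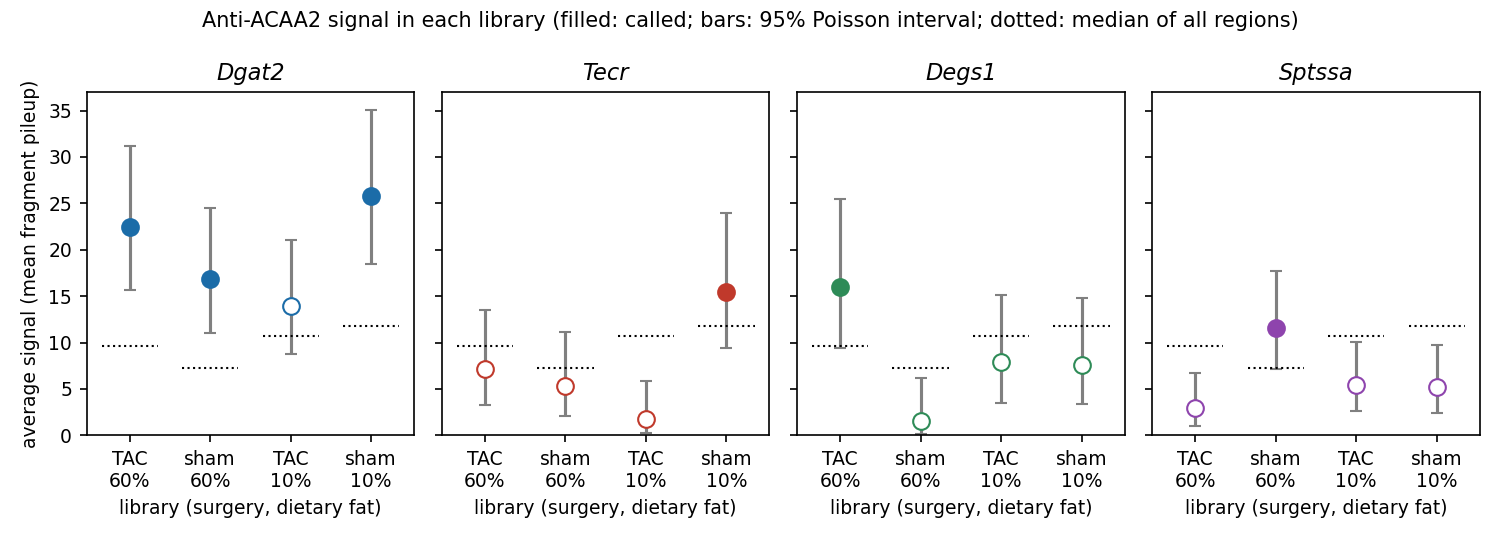
Each panel shows the average signal (mean fragment pileup) of 1 region in each of the 4 libraries, with the exact 95% Poisson interval of the estimated fragments, filled where the library has a called interval. The dotted line is the median of all regions in that library. Dgat2 lies above the dotted line in every library, and each of the other genes lies above it only in the library where it was called.

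The 4 regions differed in how far they moved across the libraries. The highest signal was 1.86 times the lowest at Dgat2, 9.01 times at Tecr, 10.2 times at Degs1 and 3.95 times at Sptssa. On the log2(signal + 1) scale used for all ratios, the range was 0.85 at Dgat2, below the median range of 1.12 over all regions, and 2.60 at Tecr, 2.73 at Degs1 and 1.68 at Sptssa. The Tecr range exceeded that of 98.8% of regions and the Degs1 range that of 99.4%, and both genes had been picked for 1 extreme ratio. Each library enters 2 of the 4 comparisons below, so comparisons that share one are not independent.

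TAC over sham on 60% fat diet asks how binding differs after pressure overload in mice fed fat. Degs1 was higher after TAC, with a log2 ratio of 2.73 (counting interval 1.16 to 6.87), and Sptssa was lower, with -1.68 (-3.69 to -0.56). These intervals come from the estimated fragments without a pseudocount, and they reach further where 1 library held few fragments. Dgat2 was at 0.40 (-0.35 to 1.20) and Tecr at 0.36 (-1.18 to 2.09), both close to the median of all regions, 0.32. So 1 of the 4 regions was at least 2-fold higher, where 15.5% of all regions were, and 1 was at least 2-fold lower, where 3.11% were. With the ratios centred on the all-region median, the counts over all regions were 272 higher and 300 lower in place of 604 and 121. Relative to that median, Degs1 was at 2.40 and Sptssa at -2.00. Degs1 and Sptssa were picked for this comparison, so nothing is read from their counts. Among single-gene regions in which the higher library reached the median, Degs1 stood first from the top before Ern1 at 2.45, and Hint3 at 2.21 and Dnajb1 at 2.08 were just inside and just outside the list of 8. Sptssa stood at place 5 from the bottom, and the last place in the list of 8 went to Ruvbl1 at -1.44, with Edc3 at -1.42 just outside it.

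Regions called in the same library alone are given as background to these ratios. A region called in 1 library alone is listed only through its signal there, so the direction of these counts is set by that call. This holds for Degs1, Sptssa and Tecr, each called only in the library where it was highest. Of the 521 regions called in TAC hearts on 60% fat diet alone, as Degs1 was, 286 (54.9%) were at least 2-fold higher after TAC on that diet and 0 lower, with a median of 1.05. Of the 130 regions called only in sham hearts on 60% fat diet, as Sptssa was, 52 (40%) were at least 2-fold lower and 0 higher, with a median of -0.86.

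On 10% fat diet, the same comparison asks about pressure overload on the control diet. Tecr was lower after TAC, at -2.60 (-6.12 to -1.20), and Dgat2 was at -0.85 (-1.71 to -0.11), short of 2-fold. Degs1 at 0.05 (-1.51 to 1.62) and Sptssa at 0.05 (-1.38 to 1.52) had almost equal signals in TAC and sham hearts, although their intervals leave room for differences of more than 2-fold either way. In this comparison 0 of the 4 regions were at least 2-fold higher, against 7.98% of all regions, and 1 was lower, against 11.7%. Tecr was picked by this ratio, where it stood at place 3 from the bottom. Lrrc58 and Ank3 were lower still, and Fndc3b at -1.93 and Kcna5 at -1.87 were just inside and just outside the list of 8. The median of all regions was -0.14, and relative to it Tecr was at -2.46 and Dgat2 at -0.71. Of the 1068 regions called only in sham hearts on 10% fat diet, as Tecr was, 354 (33.1%) were at least 2-fold lower after TAC and 0 higher, with a median of -0.82. Dgat2 was called in every library but that of TAC hearts on 10% fat diet, a combination shared by 36 regions whose median was -0.65. The direction of these values, too, follows from the calls that define the regions compared.

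In sham hearts, 60% over 10% fat diet compares the diets in mice without aortic constriction. The ratio was below 0 at Degs1, with -1.74 (-5.89 to 0.15), at Tecr, with -1.38 (-3.04 to -0.22), and at Dgat2, with -0.59 (-1.38 to 0.12). Sptssa went the other way, with 1.01 (-0.03 to 2.42). The median of all regions was -0.57, and relative to it Degs1 was at -1.16, Tecr at -0.80, Dgat2 at -0.02 and Sptssa at 1.58. At least 2-fold lower were 2 of the 4 regions, against 24.8% of all regions, and at least 2-fold higher was 1, against 2.01%. The Sptssa value passed 2-fold narrowly, and it was 0.49 by peak signal, the highest pileup in the region, and 0.82 with a pseudocount of 3. After centring, Tecr was no longer 2-fold lower, at -0.80, and the counts over all regions were 321 higher and 266 lower in place of 78 and 962. The Degs1 and Sptssa values use the same library of sham hearts on 60% fat diet as their surgery ratios, so its low or high signal enters both. The Tecr value likewise shares the library of sham hearts on 10% fat diet with its surgery ratio. Of the 1068 regions called only in sham hearts on 10% fat diet, 591 (55.3%) were at least 2-fold lower and 0 higher. Of the 130 regions called only in sham hearts on 60% fat diet, 46 (35.4%) were at least 2-fold higher and 0 lower. Tecr has the first of these calls and Sptssa the second. The direction of their ratios is set by these calls, so nothing is read from the counts.

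In TAC hearts, 60% over 10% fat diet gave 1.58 (-0.15 to 5.11) at Tecr, 0.94 (-0.23 to 2.40) at Degs1, 0.65 (-0.12 to 1.53) at Dgat2 and -0.72 (-2.75 to 0.76) at Sptssa. The median of all regions was -0.14. Tecr alone was at least 2-fold higher, 1 of 4 against 7% of all regions, and 0 were at least 2-fold lower, against 11.3%. All 4 counting intervals included 0. Degs1 passed 2-fold relative to the median, at 1.09. The Tecr value shares the library of TAC hearts on 10% fat diet with the ratio by which Tecr was picked. The Degs1 and Sptssa values likewise share the library of TAC hearts on 60% fat diet with theirs. Of the 521 regions called only in TAC hearts on 60% fat diet, 192 (36.9%) were at least 2-fold higher and 0 lower. Degs1 has this call, which sets the direction of its ratio, so nothing is read from these counts.

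**Figure D3:**
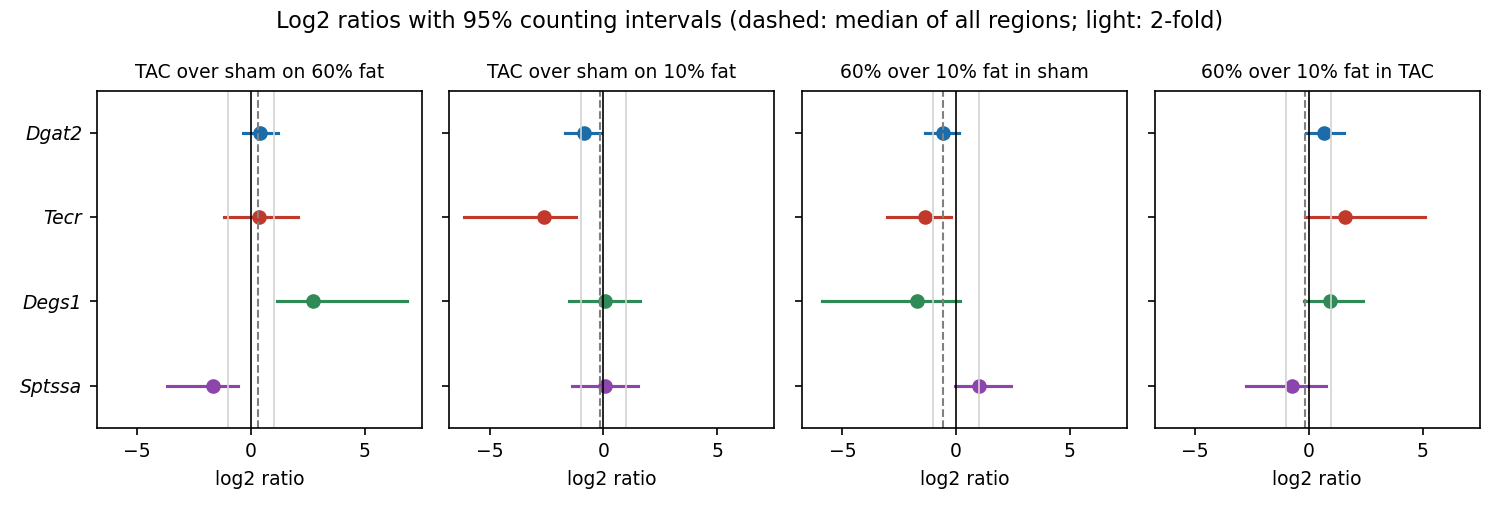
Points give the log2 ratio of the average signal (pseudocount 1) of each region in the 4 comparisons, with the first-named group on top of the ratio, and lines give the 95% counting interval. The dashed line is the median of all regions and the light lines mark 2-fold. Degs1 and Sptssa lie on opposite sides of 0 in the surgery comparison on 60% fat diet, and Tecr is the lowest in that on 10% fat diet.

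The surgery ratios differed between the diets at each of the 4 genes, and this difference was not tested. The log2 surgery ratio (TAC over sham) with 60% fat minus that with 10% fat was 2.96 at Tecr, 2.68 at Degs1, 1.24 at Dgat2 and -1.73 at Sptssa, against a median of 0.45 over all regions. Beyond 1 log2 unit, 3 of the 4 regions were higher, against 28.9% of all regions, and 1 was lower, against 8.7%. Nothing is read from these counts, since the difference contains the ratios by which Tecr, Degs1 and Sptssa were picked. Dgat2 fell short of 1 unit when the signals were scaled to the fragment sums, with 0.80, and relative to the median, with 0.79. Dgat2 and Tecr had a positive ratio on 60% fat diet and a negative one on 10% fat diet, as 38.3% of all regions did. Their ratios on 60% fat diet had counting intervals that included 0. Sptssa had the opposite signs, as 12.8% did, but its ratio on 10% fat diet was close to 0. Degs1 was above 0 on both diets, like 29.9% of regions. By peak signal, the Sptssa ratio on 10% fat diet was -0.32 and its difference between diets was -0.68.

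**Figure D4:**
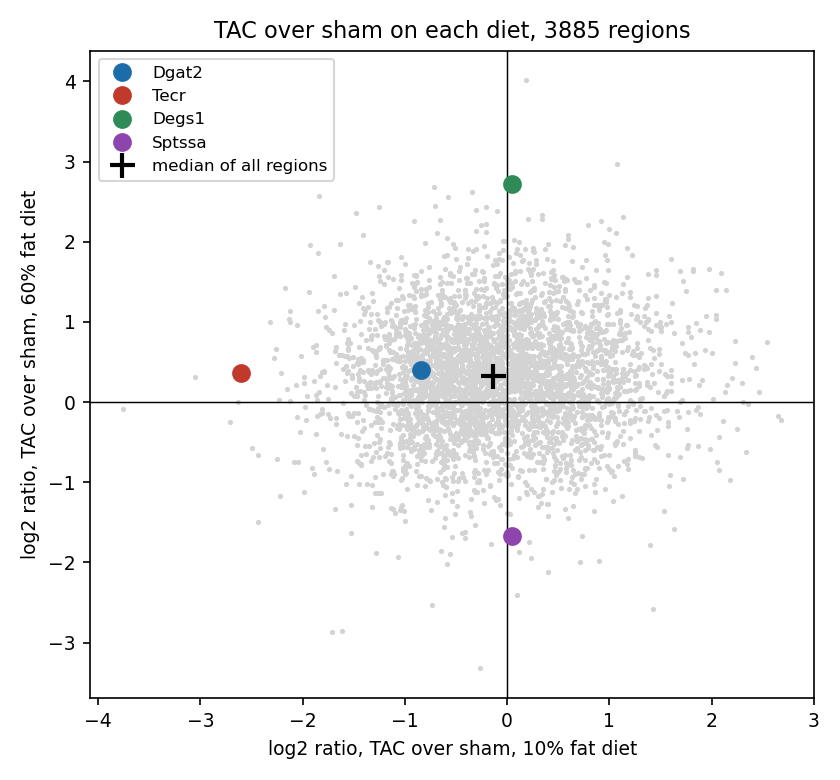
Each grey point is 1 of the 3885 regions, with its log2 surgery ratio (TAC over sham) for 10% fat diet on the horizontal axis and for 60% fat diet on the vertical axis. The cross marks the median of all regions. Tecr lies far to the left, at -2.60, while Degs1 at 2.73 and Sptssa at -1.68 lie near the vertical line at 0, and Dgat2 lies to the left of the cross at nearly the same height.

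The nearest regions on the chromosome were set beside the 4 genes by their log2 ratios of TAC over sham, first for 60% and then for 10% fat diet. The nearest to Dgat2, which had 0.40 and -0.85, were at Uvrag, 41.3 kb away, with 0.42 and 0.15, and at Gdpd5, 198 kb away, with 0.41 and -0.23. The region nearest to Tecr, 12.7 kb away, was at the heat shock gene Dnajb1, which had 2.08 and 0.60, compared with 0.36 and -2.60 at Tecr. The nearest to Degs1, 126 kb away, was at Trp53bp2, with -0.02 and 1.00, compared with 2.73 and 0.05 at Degs1. The nearest to Sptssa, 38.7 kb away, was at Eapp, with 0.63 and -0.36, compared with -1.68 and 0.05 at Sptssa. On the other side of Tecr, the next region was at Elmod2, 262 kb away, with 0.93 and -0.18. On the other side of Degs1, it was a region without a gene, 1025 kb away, with 1.63 and 0.13. For Sptssa it was at 1700031P21Rik, 2052 kb away, with 0.93 and 0.89.

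The most similar patterns over the 4 libraries were found among 730 or 731 other single-gene regions by the distance between log2(signal + 1) values after each region was centred on its own mean. Dgat2 was closest to the ribosomal protein gene Rpl34 (distance 0.13), Pnrc1 (0.15) and Hnrnpu (0.17). Sptssa was closest to Mtmr14 (0.21), Ankrd44 (0.41) and Churc1 (0.42). Degs1 was closest to Cap1 (0.40), Dscr3 (0.53) and Fam102b (0.62). Tecr was closest to Lrrc58 (0.46), Kdr (0.63) and Fgfr1 (0.64), whose signals in sham hearts on 10% fat diet were 14.3, 14.4 and 14.6. With 4 libraries, such distances describe values only.

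The signals at the marker genes with a region are given beside these values. Kdr, the vascular endothelial growth factor receptor gene, had a signal of 4.86 in TAC and 3.57 in sham hearts on 60% fat diet, and 2.33 in TAC and 14.4 in sham hearts on 10% fat diet, the order seen at Tecr. The other 7 endothelial markers had 0 regions. The cardiomyocyte markers with a region summed to 8.48 in TAC and 20.3 in sham hearts on 60% fat diet, and 8.74 in TAC and 25.0 in sham hearts on 10% fat diet. Among them Pln, which shares its region with a second gene, had 2.33 in TAC and 11.2 in sham hearts on 60% fat diet. On 10% fat diet Pln had 1.17 in TAC and 1 in sham hearts, so it was not lower after TAC there. Ttn had 1 in TAC and 2.71 in sham hearts on 60% fat diet. On 10% fat diet Ttn had 2.43 in TAC and 11.7 in sham hearts. Myh6, whose region is also shared, had 5.14 in TAC and 6.43 in sham hearts on 60% fat diet. On 10% fat diet Myh6 had 5.14 in TAC and 12.3 in sham hearts. Fabp4, the adipocyte marker, had 7.33 in TAC and 5.50 in sham hearts on 60% fat diet, and 10.5 in both groups on 10% fat diet. The 3 regions assigned to Cd68, each shared with at least 4 other genes, summed to 41.2 in TAC and 37.7 in sham hearts on 60% fat diet, and 41.7 in TAC and 50.7 in sham hearts on 10% fat diet. Their part in the results was not tested.

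The wider pathways were described from 3 gene lists, on triglyceride synthesis and lipid droplets, on fatty acid synthesis, elongation and desaturation, and on ceramide and other sphingolipids. Of their 121 genes, 35 (28.9%) had a region, against 20.8% of protein-coding genes. The ceramide list had 18 of 52 genes (34.6%), the elongation list 9 of 33 (27.3%) and the triglyceride list 8 of 36 (22.2%). Dgat1, which makes the same product as Dgat2, and Tecrl, Degs2 and Sptssb, which resemble the other members, had 0 regions each. In regions called in at least 2 libraries the share was 9.92% of list genes against 9.34% of all coding genes. There the ceramide list was below that background, at 7.69%, while the elongation list had 12.1% and the triglyceride list 11.1%. Of the members, Dgat2 alone had a region called in at least 2 libraries. Of the 35 genes, 16 share a region with another gene. The members belong to these lists and had been picked for their values, so their part in the counts is fixed by that choice.

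In TAC over sham on 60% fat diet, 4 of the 35 genes were at least 2-fold higher by the mean over their regions, where 13.2% of all 5134 genes were, and 1 was lower, where 2.14% were. Besides Degs1, the higher ones were Acly, the ATP citrate lyase gene, with 1.74 (0.26 to 4.17), Lpin3, a phosphatidate phosphatase, with 1.66 (-0.50 to 6.35), and Sptlc2, a catalytic subunit of serine palmitoyltransferase, with 1.49 (0.05 to 3.70). Sptssa was the lower one. The Sptlc2 signal was 13 in TAC and 4 in sham hearts on 60% fat diet, and 7.75 in TAC and 15.6 in sham hearts on 10% fat diet. The regions of these subunits of 1 enzyme had ratios of opposite sign, 1.49 at Sptlc2 and -1.68 at Sptssa. Sptssa was picked by this ratio and Sptlc2 was named for a 2-fold ratio, so nothing is read from the contrast. The Sptlc2 region was called only in sham hearts on 10% fat diet, a library outside this comparison. The Lpin3 region was likewise called outside it, only in TAC hearts on 10% fat diet. The Acly region was called only in TAC hearts on 60% fat diet, so the direction of its ratio is set by that call. The list medians were 0.31 (triglyceride), 0.67 (elongation) and 0.40 (ceramide), beside 0.33 over all genes.

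In TAC over sham on 10% fat diet, 3 of the 35 genes were at least 2-fold higher, where 6.8% of all genes were, and 3 lower, where 9.14% were. Lpin3 was at 1.97 (0.32 to 5.09), in a region shared with Zhx3 whose position relative to the Lpin3 start is -5826 bp. Col4a3bp, which encodes the ceramide transfer protein, was at 1.87 (0.39 to 4.49) and Gltpd1, which encodes a transfer protein for ceramide-1-phosphate, at 1.12 (0.01 to 2.62). Besides Tecr, the lower ones were Abhd5, which encodes the coactivator of adipose triglyceride lipase, at -1.46 (-4.08 to 0.19), and the ceramide synthase gene Cers3 at -1.38 (-4.15 to 0.35). The Col4a3bp and Cers3 regions lay 51194 and 58600 bp inside their genes. The Lpin3, Col4a3bp and Gltpd1 regions were called only in TAC hearts on 10% fat diet. Those of Tecr, Abhd5 and Cers3 were called only in sham hearts on that diet. Each is listed only through its signal in that library, so the direction of these ratios is set by the calls. The list medians were -0.24 (triglyceride), 0.05 (elongation) and 0.06 (ceramide), beside -0.13 over all genes.

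In sham hearts, 60% over 10% fat diet gave 1 gene at least 2-fold higher, Sptssa, where 1.5% of all genes were and where the call was lost by peak signal, and 9 lower, where 22.3% were. The ceramide list, which holds 18 of the 35 genes with a region, had 7 of the 9. Besides Degs1 they were Sptlc2 at -1.73 (-3.94 to -0.37), the sphingosine-1-phosphate receptor gene S1pr1 at -1.36 (-3.18 to -0.15), the sphingosine-1-phosphate lyase gene Sgpl1 at -1.30 as the mean of 2 regions, the saposin precursor gene Psap at -1.28 (-3.01 to -0.03), Cers3 at -1.22 (-3.74 to 0.47) and the neutral sphingomyelinase gene Smpd3 at -1.11 (-2.18 to -0.36). The others were Tecr, at -1.38, and Acly, at -1.06 (-3.54 to 0.67). The Sptlc2, S1pr1, Psap, Cers3 and Tecr regions were called only in sham hearts on 10% fat diet. The Sptssa region was called only in sham hearts on 60% fat diet. The direction of these ratios is set by the calls. The Degs1, Acly and Sgpl1 regions were called only in TAC hearts. Relative to the all-region median 2 genes were at least 2-fold lower and 4 higher. For the ceramide list these counts were 2 lower and 2 higher. The ceramide list had a median of -0.58, the elongation list of -0.73 and the triglyceride list of -0.50, beside -0.54 over all genes.

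In TAC hearts, 60% over 10% fat diet gave 1 gene at least 2-fold higher, Tecr, where 5.04% of all genes were, and 1 lower, Col4a3bp at -1.60 (-3.84 to -0.18), where 9.45% were. Col4a3bp had a signal of 4 in TAC and 6.29 in sham hearts on 60% fat diet, and 14.1 in TAC and 3.14 in sham hearts on 10% fat diet. Its region was called only in TAC hearts on 10% fat diet, so the direction of its ratio is set by that call. The list medians were 0.43 (triglyceride), -0.01 (elongation) and -0.37 (ceramide), beside -0.14 over all genes. Lists of 8 to 18 genes with imprecise ratios give medians with a wide counting error.

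The genes with the highest mean signal on each list included Dgat2. After Dgat2 on the triglyceride list came Agpat1, a lysophosphatidate acyltransferase gene whose region is at -1810 bp from its start and is shared with 4 other genes, with a mean of 15.5. On the elongation list they were Fasn, the fatty acid synthase gene, at 15.7 and Srebf1, a transcription factor gene of lipid synthesis, at 11.8. The region given to Fasn lies 28081 bp from its start and is shared with Gps1 and Dus1l. On the ceramide list they were Ormdl2, an inhibitor of serine palmitoyltransferase, at 14.0 and Sphk2, a sphingosine kinase gene with 5 regions, at 12.4. By the mean over its regions, none of these 5 genes was 2-fold changed in any of the 4 comparisons.

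**Figure D5:**
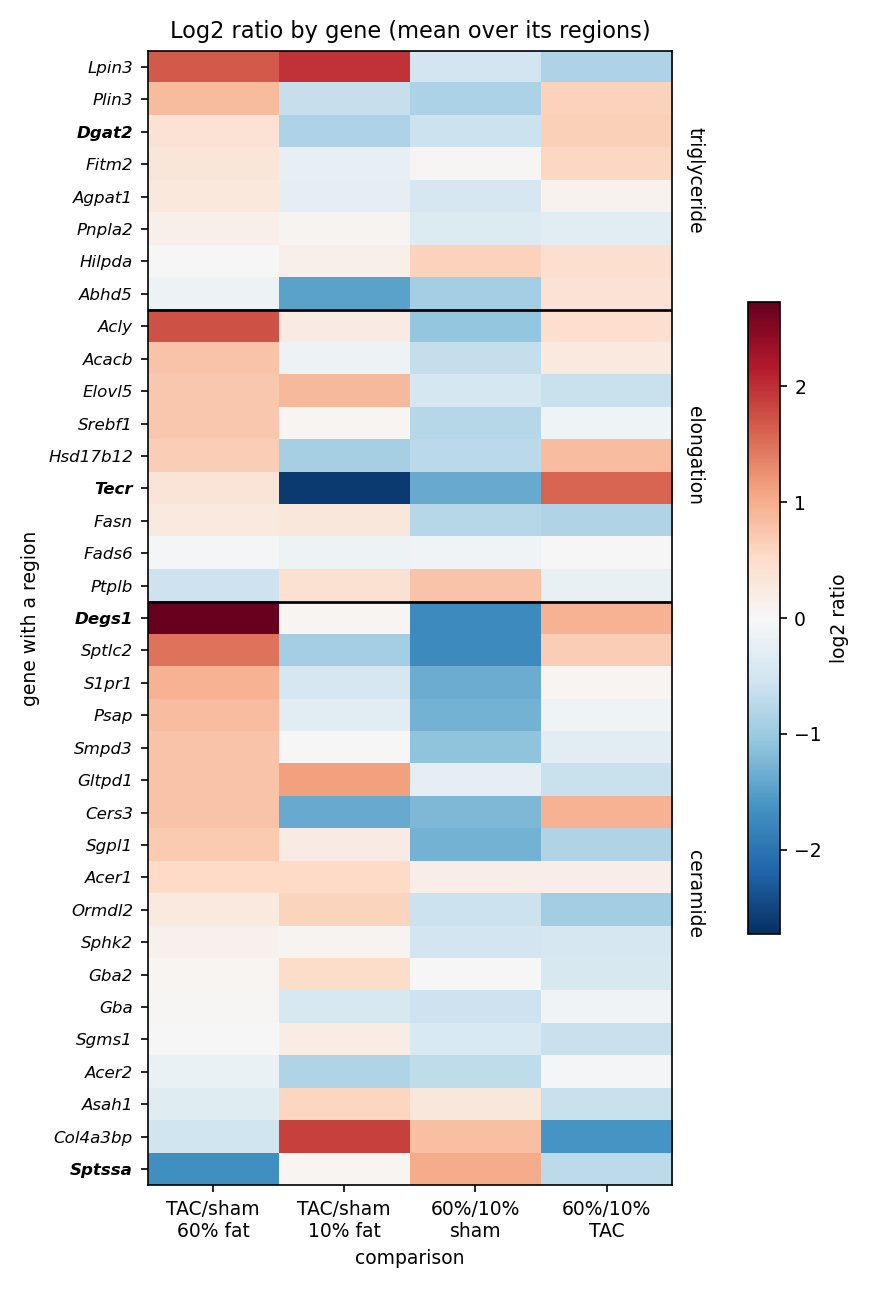
The colours give the log2 ratio of each of the 35 list genes with a region (mean over its regions) in the 4 comparisons, grouped by list and ordered by TAC over sham on 60% fat diet, with the 4 members in bold. Red is higher in the first-named group. Degs1 (2.73) and Sptssa (-1.68) stand at opposite ends of the ceramide list in that comparison.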

How the data were processed

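Values came from 1 deposited table of merged regions for 4 anti-ACAA2 libraries. The submitters' processing notes name BWA, SICER and mm10; the sources used here do not give versions, read filters or depth matching. The average and peak signal deposited by the authors are read here as the mean and highest fragment pileup per region. The column headers call them average and peak values. The peak values were whole in 100% of regions. Deposited log2 ratios of the authors are those of the average signals without a pseudocount. The pooled input was not analysed here.

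Log2 ratios were computed from the average signal plus 1, with at least 2-fold as the threshold. Fragments were estimated as signal times region length over 224, the constant behind the authors' own fragment values. Intervals at the 95% level are exact Poisson for a signal and Clopper-Pearson for a ratio, from these unrounded estimates. A gene's value is the mean over its regions. List symbols were matched to the table directly or through 1 RefSeq synonym, so Hacd2 appears as Ptplb and Cptp as Gltpd1.

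Members and lists were chosen with earlier results of these data known. Named were all members, the 2 list genes of highest mean signal and those changed 2-fold in any comparison. Python 3.11.15, scipy 1.17.1 and matplotlib 3.10.9 were used.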

Additional observations from a re-analysis of the deposited data

Results flagged for a closer look

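At 3 of the 4 members the ratio of TAC over sham had opposite signs on the 2 diets, in 1 library each, and the difference was not tested. The log2 ratio on 60% fat diet minus that on 10% fat diet was 1.24 at Dgat2, 2.96 at Tecr and -1.73 at Sptssa. The same held at 7 named list genes, with differences of 2.41 at Sptlc2, 2.16 at Cers3, 1.40 at S1pr1, 1.15 at Psap, 0.80 at Smpd3, 0.56 at Agpat1 and -2.41 at Col4a3bp. The Smpd3 ratio on 10% fat diet was close to 0, at -0.01. At Dgat2 and Tecr the ratios on 60% fat diet were 0.40 (-0.35 to 1.20) and 0.36 (-1.18 to 2.09). Relative to the all-region median they were 0.07 and 0.03. The Sptssa ratio on 10% fat diet was 0.05 (-1.38 to 1.52). These 3 counting intervals included 0, so the sign of these ratios is uncertain. The other named list genes, Abhd5, Lpin3, Acly, Fasn, Srebf1, Gltpd1, Ormdl2, Sgpl1 and Sphk2, had the same sign on both diets. Members were picked and list genes named by their values, so nothing is read from these counts. By peak signal Sptssa was below 0 on both diets, with -1 on 60% and -0.32 on 10% fat diet. Of all regions, 38.3% were above 0 on 60% fat diet and below 0 on 10% fat diet, and 12.8% had the opposite signs.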

How the results depend on the processing

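The 16 member ratios were recomputed under 7 alternatives each, with no pseudocount or one of 0.5 or 3, peak signal, centring on the all-region median, quantile normalization, or scaling to fragment sums. All 112 values stayed within the counting interval, which is wide. For TAC over sham, the ratio on 60% fat diet ranged from 2.06 to 3.35 at Degs1 and from -2.00 to -1 at Sptssa, and that on 10% fat diet from -3.17 to -1.97 at Tecr. Several values crossed 2-fold, and the cause was not tested. For diet in sham hearts, Sptssa was at 0.49 by peak signal and 0.82 with a pseudocount of 3, and Tecr at -0.80 centred, -0.81 after quantile normalization and -0.84 scaled to fragment sums. For diet in TAC hearts, Degs1 was between 1.03 and 1.09 with no pseudocount or with any of these 3 scalings. The surgery ratio's difference between diets was -0.68 at Sptssa by peak signal and 0.80 at Dgat2 scaled to fragment sums. For the 3 lipid lists, single-gene regions gave 2.54 times the share of all coding genes in place of 1.39, and 1 gene 2-fold higher after TAC on 10% fat diet. Regions called in at least 2 libraries gave 0.82 times the share of all coding genes for the ceramide list in place of 1.66. Centring gave 4 higher and 2 lower genes for diet in sham hearts and 3 higher genes for diet in TAC hearts. With each gene's region of highest signal, 2 genes were lower for diet in TAC hearts. Over 7 alternatives of threshold, scaling or signal on all 3885 regions, the counts of 2-fold regions ranged from 135 to 1339 higher (604 as reported) and 27 to 379 lower (121) for TAC on 60% fat diet, and from 78 to 709 higher (310) and 91 to 1110 lower (455) on 10% fat diet. For diet they ranged from 10 to 321 higher (78) and 262 to 1920 lower (962) in sham hearts, and from 61 to 639 higher (272) and 120 to 1051 lower (440) in TAC hearts. Among the 1406 regions called in at least 2 libraries, 139 were higher and 18 lower for TAC on 60% fat diet, 31 higher and 56 lower for TAC on 10% fat diet, 9 higher and 234 lower for diet in sham hearts, and 37 higher and 67 lower for diet in TAC hearts. No paired analysis was possible because each group has 1 library, and none could be left out. Estimated fragments of 1.72 to 40.8 per member region and library limit all ratios.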
